A study of Homo sapiens with 10 samples.

Results

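The genes described here are 10 heat shock proteins and co-chaperones, HSPB1, HSPA4, HSPA8, HSPD1, HSPE1, HSPH1, HSP90AA1, HSP90AB1, DNAJB1 and BAG3, followed across 6 groups of prostate cancer cells. They were chosen by name. Each gene was read from the probe set that names it alone and has the highest mean level over all arrays. Of the 10 genes, 9 had such a probe set, out of 14313 genes tested. HSPA8 was the exception. Its 4 probe sets are also annotated to SNORD14C and SNORD14D, small nucleolar RNAs that lie inside HSPA8 in RefSeq, so its values are given beside the others and enter no count. In all, 28 probe sets carried a member's symbol and 24 of these carried 1 symbol. All 9 genes passed the filter on dim probe sets, as did 22 of those 24 probe sets, the exceptions being dim probe sets of HSPD1.

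RNA from 10 samples of DU145 and LNCaP cells was hybridised to Affymetrix expression arrays, 1 array per sample. DU145 is an androgen-independent prostate cancer line and LNCaP an androgen-responsive one. In each line, the PGK control group (2 arrays) carried a vector with GFP and a puromycin resistance gene behind the ubiquitous PGK promoter. The EOS group (2 arrays) carried the same genes behind enhancers of OCT4 and SOX2 and was kept in puromycin for a few weeks, a selection meant to raise the share of cells with more OCT4. The ribavirin group (1 array) was labelled as EOS 2 treated by ribavirin, a guanosine analogue used as an antiviral drug. The dose and duration of ribavirin, and whether PGK cells were also grown in puromycin, are not given in the sources used here. The labels do not state whether the arrays numbered 1 and 2 were grown as separate cultures. A p-value here therefore rests on array-to-array spread that may be technical.

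Heat shock proteins are molecular chaperones that bind unfolded or partly folded proteins. HSP70 proteins work in a cycle of ATP hydrolysis that J-domain proteins start and nucleotide exchange factors complete, HSP90 acts later on kinases and steroid receptors, including the androgen receptor of prostate cells, and small heat shock proteins hold unfolded proteins without ATP. Many of their genes are induced together by heat shock factor 1, HSF1, which binds repeats of the unit GAA and its reverse, TTC, in their promoters.

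Because these genes are known for that shared control, their promoters were searched for the repeat. The RefSeq windows from 250 bases before to 50 bases after each annotated start (assembly GRCh38.p14) covered all 10 genes with 16 windows. A run of 3 units, GAANNTTCNNGAA or TTCNNGAANNTTC, lay in 4 of the 16 windows, 1 each of HSPA8, HSPD1, HSP90AA1 and HSP90AB1, against 0.49% of 35116 windows of all genes. A run of 2 units, GAANNTTC or TTCNNGAA, which every run of 3 also contains, lay in 7 of the 16 windows and in 6 genes, against 13.5% of all windows. The repeats are their own reverse complements or each other's, so both strands were covered. Every repeat found is printed with 4 bases on each side, read along the gene's strand, with its units and the bases between them in capitals.
HSPB1 (chr7:76302487-76302502, + strand): gagaGAAGGTTCcaga
HSPA8 (chr11:123062350-123062370, - strand): gcttGAAAGTTCCAGAAcgct
HSPA8 (chr11:123062175-123062195, - strand): ccccTTCTGGAAGGTTCtaag
HSPD1 (chr2:197500064-197500089, - strand): cattTTCTGGAAAGTTCTGGAAccga
HSP90AA1 (chr14:102087116-102087136, - strand): gttcTTCCGGAAGGTTCggga
HSP90AA1 (chr14:102087101-102087116, - strand): aggcTTCTGGAAaaag
HSP90AB1 (chr6:44247774-44247794, + strand): caggTTCTGGAAGATTCatgg
HSP90AB1 (chr6:44247827-44247847, + strand): attgTTCTGGAAGCTTCtgga
DNAJB1 (chr19:14518463-14518478, - strand): ggcgGAAGGTTCtgga
DNAJB1 (chr19:14518433-14518448, - strand): tctgGAAGCTTCcgcc
DNAJB1 (chr19:14517925-14517940, - strand): gccaGAAGCTTCtagc
No such run lay in the windows of HSPA4, HSPE1, HSPH1 or BAG3, which says only that these letters are not in those windows.

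A pair of promoters is shown in full. HSPB1 is shown because it had the largest difference between the lines of the 9 genes. The 250 bases before its start, chr7:76302423-76302672 on the + strand, have the 2-unit run in capitals.
HSPB1 promoter: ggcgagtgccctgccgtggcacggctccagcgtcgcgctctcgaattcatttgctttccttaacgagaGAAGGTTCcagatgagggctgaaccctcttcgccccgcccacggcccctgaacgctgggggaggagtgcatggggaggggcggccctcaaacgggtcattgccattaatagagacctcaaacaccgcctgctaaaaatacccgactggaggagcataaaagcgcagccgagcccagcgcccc
HSPD1 and HSPE1, the mitochondrial chaperonin and its lid, are shown because they lie head to head and were both higher in LNCaP. Their first annotated starts are 104 bases apart, and these bases, chr2:197500275-197500378, are read along the strand of HSPD1.
HSPD1 to HSPE1: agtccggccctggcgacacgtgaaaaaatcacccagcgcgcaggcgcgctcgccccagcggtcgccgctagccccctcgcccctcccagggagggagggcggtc

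The labels were checked against markers of the lines, all on the log2 scale of intensity. KLK3, the gene of prostate-specific antigen, was at 4.62 to 5.89 in DU145 and 14.80 to 15.33 in LNCaP, and CD44 was at 11.16 to 11.74 and 4.11 to 5.23. Arrays numbered 1 and 2 differed in deposited scale: the 4 arrays numbered 1 were deposited at a trimmed mean of 500 and the 6 numbered 2 at 96.56 to 126.5. The 3' to 5' ratio of ACTB, which reads how far amplified RNA extends toward the 5' end, ranged from 1.236 to 1.511 in the former and 3.204 to 3.993 in the latter. The GAPDH ratio differed less, from 0.9585 to 1.06 in arrays numbered 1 and from 1.092 to 1.216 in those numbered 2. In a principal component analysis of all genes, component 2 (8.14% of the variance) set LNCaP arrays numbered 1, at 46.5 and 48, apart from those numbered 2, at -37.4 to -21.2. LNCaP PGK 2 stood apart at -53.3 on component 3 (4.21%). Both PGK and EOS groups hold both numbers, while both ribavirin arrays are number 2. Of 6 fibroblast markers, COL3A1 and POSTN were higher in every DU145 array than in any LNCaP array, and the summed intensity of the list was 426 to 3170 in DU145 and 332 to 829 in LNCaP. For 4 leukocyte markers the sums were 83 to 148 and 76.9 to 271, and for 3 endothelial markers 80.8 to 156 and 139 to 304. The part of these differences in the results was not tested.

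The cell lines were compared over 4 arrays each, as the mean of the PGK and EOS groups. HSPB1, HSPE1, HSPH1 and HSPD1 were higher in LNCaP and DNAJB1 was lower, by limma with an adjusted p under 0.05. HSPB1 differed most, by 5.44-fold, HSPE1 by 2.21-fold, HSPH1 by 2.15-fold, HSPD1 by 1.43-fold, and DNAJB1 was lower by 1.76-fold. The remaining HSPA4, HSP90AA1, HSP90AB1 and BAG3 did not pass. The count of 5 of 9 stands beside 46.3% of all genes called between these lines, 22.6% higher and 23.7% lower in LNCaP, and 5 of 9 is close to that background. In bulk RNA, a difference in the share of cells and a difference in RNA per cell cannot be told apart.

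**Figure D1:**
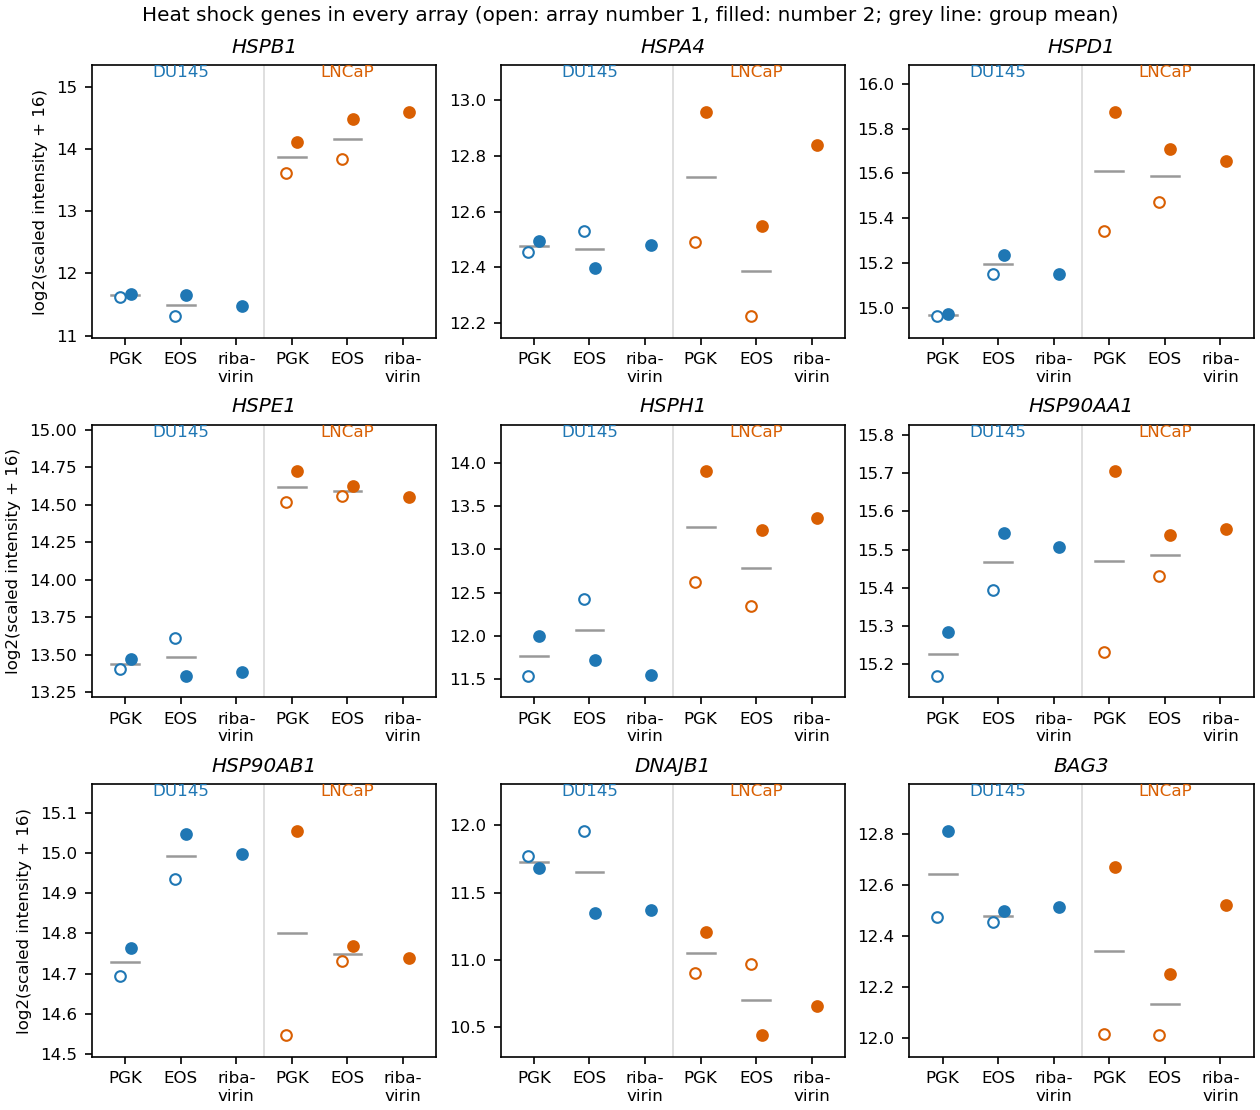
Level of each of the 9 genes in every array, as log2(scaled intensity + 16) on the vertical axes, which differ between panels, with DU145 in blue and LNCaP in orange, open points for arrays numbered 1, filled points for arrays numbered 2 and grey lines for group means. HSPB1 and HSPE1 are separated by line in every array, while LNCaP arrays numbered 1 lie below those numbered 2 for HSPB1, HSPA4, HSPD1, HSPH1, HSP90AA1, HSP90AB1 and BAG3. The share of all genes separated by number in this way was not computed.

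Among the small heat shock proteins, HSPB1 (HSP27) binds unfolded proteins and actin. In DU145 its log2 level was 11.62 and 11.68 in the PGK arrays, 11.31 and 11.66 in the EOS arrays and 11.48 with ribavirin. In LNCaP it was 13.61 and 14.12 with PGK, 13.84 and 14.47 with EOS and 14.60 with ribavirin. Every LNCaP array lay above every DU145 array. The log2 difference was 2.44 ± 0.18 (standard error, 4 arrays per line; limma adjusted p = 1.3e-05), with a 95% interval of 2.04 to 2.85. Between arrays of the same vector and number it was 1.99 for PGK 1, 2.44 for PGK 2, 2.53 for EOS 1, 2.81 for EOS 2 and 3.12 for the ribavirin pair. Within the 4 arrays numbered 1 the difference was 2.26 ± 0.16, and within the 4 PGK and EOS arrays numbered 2 it was 2.63 ± 0.17. Within-number values below are likewise from PGK and EOS arrays, without ribavirin, unless stated. Each such fit had a single array per vector and line, so its standard errors leaned on the spread estimated across all genes. Among the 6 group means, the gap between the lowest LNCaP group (PGK, 13.86) and the highest DU145 group (PGK, 11.65) exceeded 2 standard errors of a group difference, and no other neighbouring pair did.

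The mitochondrial chaperonin is a barrel of HSPD1 (HSP60) closed by a lid of HSPE1 (HSP10), and folds proteins imported into mitochondria. HSPE1 in DU145 was at 13.40 and 13.47 with PGK, 13.61 and 13.36 with EOS and 13.39 with ribavirin, and in LNCaP at 14.52 and 14.73, 14.56 and 14.63, and 14.55. HSPD1 in DU145 was at 14.96 and 14.98 with PGK, 15.15 and 15.24 with EOS and 15.15 with ribavirin, and in LNCaP at 15.34 and 15.88, 15.47 and 15.71, and 15.65. For both genes the lines did not overlap. The difference for HSPE1 was 1.14 ± 0.10 (limma adjusted p = 4.33e-05; interval 0.91 to 1.38), 1.03 ± 0.12 within number 1 and 1.26 ± 0.16 within number 2. HSPD1 differed by 0.52 ± 0.12 (limma adjusted p = 0.00912; interval 0.23 to 0.80), 0.35 ± 0.10 within number 1 and 0.69 ± 0.17 within number 2. In the EOS groups alone the HSPD1 difference was 0.39 ± 0.18 and did not pass (limma adjusted p = 0.128). Its spread was still that of all arrays. A dimmer HSPD1 probe set differed by 1.09 ± 0.18 and the dimmest tested one by 0.23 ± 0.22.

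HSP70 family members and their partners showed 2 directions. HSPH1 (HSP105), a relative of HSP70 that exchanges its nucleotide, was at 11.54 and 11.997 with PGK, 12.43 and 11.72 with EOS and 11.55 with ribavirin in DU145. LNCaP arrays had 12.62 and 13.90 with PGK, 12.34 and 13.23 with EOS and 13.37 with ribavirin. The lines overlapped, since LNCaP EOS 1 lay below DU145 EOS 1. The difference was 1.10 ± 0.32 (limma adjusted p = 0.021; interval 0.37 to 1.83). The difference was 0.50 within arrays numbered 1 and 1.71 within those numbered 2. By PGK and EOS pair it was 1.08 and -0.08 in number 1, and 1.91 and 1.51 in number 2. In the EOS groups alone, with the spread of all arrays, it was 0.71 ± 0.45 (limma adjusted p = 0.277). Without DU145 PGK 1 the difference was 0.99 (limma adjusted p = 0.0764), without DU145 EOS 2 it was 0.93 (0.0839) and without LNCaP EOS 2 it was 0.88 (0.0557). Other HSPH1 probe sets differed by 1.55 ± 0.41 and 0.17 ± 0.30.

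DNAJB1 (HSP40), the J-domain protein that stimulates HSP70's ATPase, was the gene lower in LNCaP. DU145 arrays had 11.77 and 11.68 with PGK, 11.96 and 11.35 with EOS and 11.37 with ribavirin. The LNCaP levels were 10.90 and 11.21, 10.97 and 10.44, and 10.65, so that the lines did not overlap. The difference was -0.81 ± 0.19 (limma adjusted p = 0.00741; interval -1.25 to -0.38), -0.93 ± 0.16 within number 1 and -0.70 ± 0.20 within number 2. A dimmer DNAJB1 probe set differed by -0.35 ± 0.26, and with the mean of both the value was -0.58 (limma adjusted p = 0.0571). In the PGK groups alone, with the spread of all arrays, it was -0.68 ± 0.27 (limma adjusted p = 0.0858).

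BAG3, a nucleotide exchange factor that links HSP70 to selective autophagy, was at 12.48 and 12.81 with PGK, 12.46 and 12.50 with EOS and 12.51 with ribavirin in DU145. In LNCaP it was at 12.02 and 12.67, 12.01 and 12.25, and 12.52, and the lines overlapped. The difference of -0.32 ± 0.17 did not pass (limma adjusted p = 0.148; interval -0.70 to 0.06). With the array number as a replicate block the same difference passed (limma adjusted p = 0.0341). It was -0.49 without LNCaP PGK 2, -0.45 within arrays numbered 1 and -0.19 within arrays numbered 2.

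HSPA4 (APG-2), another HSP70 relative with exchange activity, was at 12.40 to 12.53 in DU145 and 12.23 to 12.96 in LNCaP. Its difference of 0.09 ± 0.14 did not pass (limma adjusted p = 0.659; interval -0.24 to 0.41). It was -0.14 within arrays numbered 1, 0.31 within those numbered 2 and 0.32 with both ribavirin arrays added to number 2. The constitutive HSP70, HSPA8 (HSC70), can be read only from the probe sets shared with SNORD14C and SNORD14D. These ranged from 13.50 to 14.85 in DU145 and from 14.64 to 15.50 in LNCaP over arrays and probe sets, and differed by 0.58 ± 0.11, 0.77 ± 0.13, 0.83 ± 0.13 and 0.97 ± 0.21.

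HSP90 itself was read as the inducible HSP90AA1 and the constitutive HSP90AB1, and neither passed the test between the lines. HSP90AA1 was at 15.17 and 15.28 with PGK, 15.39 and 15.54 with EOS and 15.51 with ribavirin in DU145, and at 15.23 and 15.71, 15.43 and 15.54, and 15.55 in LNCaP. HSP90AB1 was at 14.69 and 14.76, 14.94 and 15.05, and 15.00 in DU145, and at 14.55 and 15.06, 14.73 and 14.77, and 14.74 in LNCaP. Both genes overlapped between the lines. The HSP90AA1 difference was 0.13 ± 0.12 (limma adjusted p = 0.392; interval -0.13 to 0.39) and the HSP90AB1 difference -0.09 ± 0.12 (limma adjusted p = 0.598; interval -0.36 to 0.19). Other HSP90AB1 probe sets differed by -0.24 ± 0.11 and -0.34 ± 0.12, and those of HSP90AA1 by 0.13 to 0.21. HSP90AA1 passed without LNCaP PGK 1 (0.25, limma adjusted p = 0.0465).

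**Figure D2:**
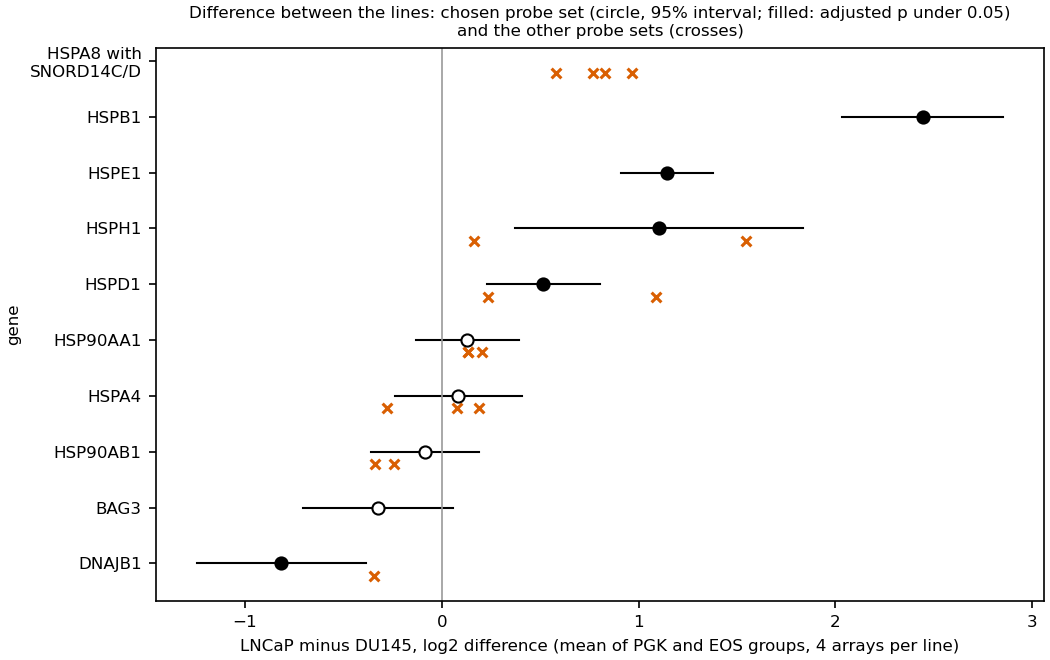
Log2 difference between LNCaP and DU145 on the horizontal axis (mean of PGK and EOS groups, 4 arrays per line) for each gene, with circles and 95% intervals for the chosen probe set, filled where the adjusted p was under 0.05, and orange crosses for the other probe sets. HSPB1 lies at 2.44 and DNAJB1 at -0.81, while the intervals of HSPA4, HSP90AA1, HSP90AB1 and BAG3 cross 0.

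Over all 5 arrays of each line, 4 of the 9 genes did not overlap between the lines: HSPB1, HSPD1 and HSPE1 upward and DNAJB1 downward in LNCaP. Of all genes tested, 42.5% did not overlap in this way, close to the share among the 9. The median difference of the 9 genes was 0.13 and that of all genes -0.01.

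Other chaperone genes were read from 7 lists of 74 genes in all, of which 62 were tested. In LNCaP 26 of the 62 were higher and 13 lower, beside 22.6% and 23.7% of all genes, with a median difference of 0.29 beside -0.01. The counts by list stand beside the same shares. The HSP90 family and its co-chaperones had 7 of 13 higher, among them the mitochondrial HSP90 paralogue TRAP1 (0.52 ± 0.13, limma adjusted p = 0.00957), and 1 lower. FKBP5 and FKBP4, immunophilins that bind HSP90 in steroid receptor complexes, were higher by 1.87 ± 0.11 (limma adjusted p = 3.81e-06) and 1.86 ± 0.21 (0.000155), and PPID, the cyclophilin of the same complexes, by 1.12 ± 0.15 (0.000379). STIP1, which joins HSP70 to HSP90, did not pass at -0.42 ± 0.22 (0.154).

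J-domain proteins had 8 of 16 higher and 4 lower. DNAJA4 was lower by the widest margin of the lists, -5.53 ± 0.37 (limma adjusted p = 8.24e-06), from 9.97 to 10.80 in DU145 to 4.33 to 5.95 in LNCaP, the latter near the scale's floor of 4. DNAJB4 was lower at -2.45 ± 0.21 (2.76e-05) and DNAJB6 at -2.27 ± 0.24 (0.000105), whereas DNAJA1 was higher by 0.63 ± 0.16 (0.0113). Exchange factors and HSP70 co-chaperones had 5 of 11 higher and 1 lower, with STUB1, the ubiquitin ligase CHIP, higher by 1.25 ± 0.12 (6.63e-05).

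Other HSP70 and HSP110 genes had 2 of 10 higher and 3 lower. HSPA13 was lower at -0.86 ± 0.12 (limma adjusted p = 0.000588), and the endoplasmic reticulum HSP70 HSPA5 (0.23 ± 0.16, 0.275) and the mitochondrial one, HSPA9 (-0.25 ± 0.12, 0.111), did not pass. The stress-induced HSPA1A and HSPA1B share their probe sets, and these differed by 0.64 ± 0.16, 0.59 ± 0.14 and, for a dim one at 4.38 to 7.46, -1.83 ± 0.40. The probe set at 0.64 is also annotated to HSPA1L. The cytosolic chaperonin TRiC had 2 of 7 higher and 3 lower, the small heat shock proteins 1 of 3 higher and 1 lower, and the regulators 1 of 2 higher. HSF1 differed by 0.01 ± 0.20 and did not pass (limma adjusted p = 0.986).

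**Figure D3:**
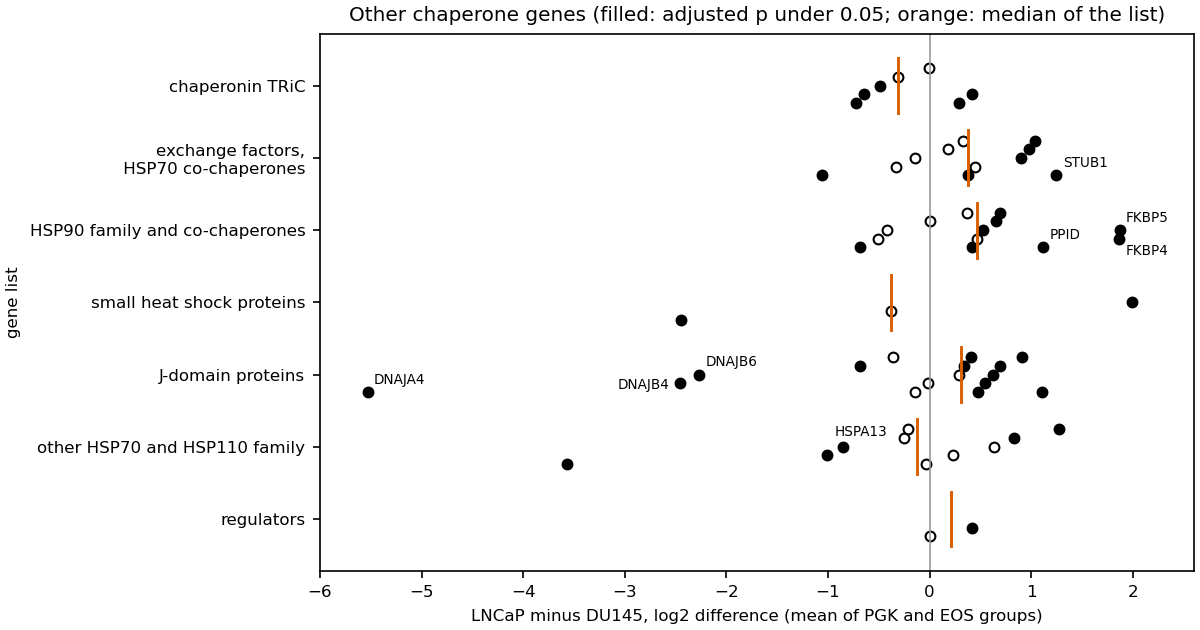
Log2 difference between LNCaP and DU145 (horizontal axis) for 62 other chaperone genes by list, filled where the adjusted p was under 0.05, with orange bars for list medians. FKBP5 and FKBP4 lie at 1.87 and 1.86, and DNAJA4 at -5.53.

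EOS selection was compared with the PGK vector in each line, 2 arrays against 2. No heat shock gene passed the test in either line, in the mean of both lines or in the difference between lines. The background was 0% in each of these comparisons, with 0 of 14313 genes past the limma threshold. At an unadjusted p under 0.05 there were 226 genes in DU145, 596 in LNCaP, 292 for the mean and 464 for the difference, and 0 of the 9 heat shock genes in each. The median of the 9 genes was 0.05 in DU145 and -0.05 in LNCaP, beside -0.02 and 0.05 for all genes.

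By their chosen probe sets, HSP90AA1, HSP90AB1 and HSPD1 were higher in EOS than in PGK in both DU145 pairs of the same number. HSP90AA1 was higher by 0.23 and 0.26, HSP90AB1 by 0.24 and 0.29 and HSPD1 by 0.19 and 0.26. In LNCaP each was higher in the pair numbered 1 (0.20, 0.19 and 0.13) and lower in the pair numbered 2 (-0.17, -0.29 and -0.17). The fitted values in DU145 were 0.24 ± 0.16, 0.26 ± 0.17 and 0.23 ± 0.18, and the LNCaP values were 0.02 ± 0.16, -0.05 ± 0.17 and -0.02 ± 0.18. None of these passed, and the difference between lines did not pass for any of the 3. The standard errors share the spread of all arrays, and the array number was not in this fit. In the DU145 pair numbered 2, a dimmer HSPD1 probe set went the other way, at 13.35 with PGK and 13.26 with EOS. A dimmer HSP90AA1 probe set was at 14.04 in both. The remaining probe sets of these genes past the filter were higher in EOS in both DU145 pairs.

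HSPH1 and DNAJB1 varied most between pairs. HSPH1 was 0.89 higher in EOS in the DU145 pair numbered 1 and differed by -0.28 in the pair numbered 2, and in LNCaP it differed by -0.28 and -0.68. DNAJB1 differed by 0.19 and -0.33 in DU145 and by 0.07 and -0.77 in LNCaP. In LNCaP the pair numbered 2, which holds the array that stood apart, LNCaP PGK 2, had 1 of 9 genes above 0 (HSPB1, at 0.36) and a median of -0.29. The pair numbered 1 had 6 of 9 above 0 and a median of 0.07. In DU145 the pairs had 7 and 3 of 9 above 0, with medians of 0.19 and -0.09. The share of all genes above 0 was 46.6% and 50.4% in the DU145 pairs numbered 1 and 2. In the LNCaP pairs it was 55.7% and 54.3%. Both pairs of a line differed in sign for 4 of the 9 genes in DU145 and 5 of 9 in LNCaP. The remaining fitted values were -0.01 ± 0.20 for HSPA4, 0.05 ± 0.15 for HSPE1 and -0.17 ± 0.24 for BAG3 in DU145, and -0.34 ± 0.20, -0.03 ± 0.15 and -0.21 ± 0.24 in LNCaP. The 95% intervals of the fitted values reached from -0.74 (HSPB1) to 1.34 (HSPH1) in DU145 and from -1.51 (HSPH1) to 0.87 (HSPB1) in LNCaP.

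**Figure D4:**
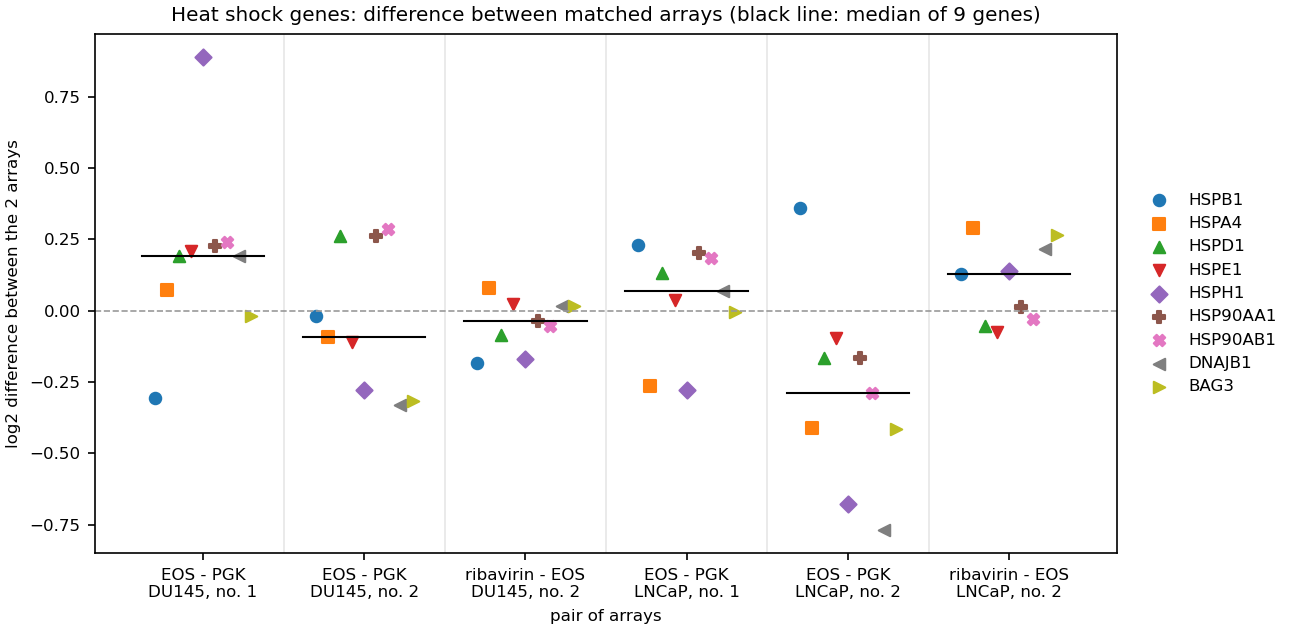
Log2 difference (vertical axis) between matched arrays for the 9 genes, for EOS minus PGK of the same number and ribavirin minus EOS 2 in each line, with black lines for medians. EOS minus PGK medians are 0.19 and -0.09 in DU145 and 0.07 and -0.29 in LNCaP, and the ribavirin differences lie between -0.18 and 0.29.

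Ribavirin was compared with EOS with the array number as a replicate block, since both ribavirin arrays are number 2 and the line's single array has no replicate of its own. No heat shock gene passed the test, and limma called 0 of 14313 genes (0%) in DU145, LNCaP, their mean and their difference. At an unadjusted p under 0.05 there were 364, 405, 341 and 335 genes, and 0 of the 9. Against EOS 2, the one treated per the labels, the 9 genes had a median difference of -0.04 in DU145 and 0.13 in LNCaP. In DU145 4 of 9 were above 0 (range -0.18 to 0.08), and in LNCaP 6 of 9 (range -0.08 to 0.29). The share of all genes above 0 was 52.7% in DU145 and 47.3% in LNCaP. HSPA4 and BAG3 had the highest of these values in LNCaP, 0.29 and 0.27, and 0.08 and 0.02 in DU145. HSPB1 differed by -0.18 in DU145 and 0.13 in LNCaP, HSPH1 by -0.17 and 0.14, and DNAJB1 by 0.02 and 0.22. HSPD1, HSPE1, HSP90AA1 and HSP90AB1 lay between -0.08 and 0.02 in both lines. Fitted values had 95% intervals within -1.23 to 0.57 in DU145 and -0.73 to 0.81 in LNCaP, both ends set by HSPH1 except the upper DU145 one, set by DNAJB1. In the other chaperone lists 0 of 62 genes passed in any EOS or ribavirin comparison. STIP1 with ribavirin in DU145 was at -0.72 ± 0.18 and FKBP5 in LNCaP at 0.63 ± 0.16, both with a limma adjusted p of 1. Fitted EOS values of HSF1, HSPA5, HSPA9, DNAJA1 and STIP1 lay between -0.29 and 0.26 in DU145 and between -0.50 and -0.12 in LNCaP.

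Arrays numbered 2 were set against those numbered 1 in each line, with the vector in the fit, because the numbers differ in deposited scale. In LNCaP 7 of the 9 genes were lower in every array numbered 1 than in any array numbered 2. The share of all genes separated in this way was not computed, so it is not known whether the 9 genes stand out. The test is on these same arrays, so its calls and the count of 7 are not independent of each other. In LNCaP, HSPH1 was higher in number 2 by 1.08 ± 0.25 (limma adjusted p = 0.0455) and HSPB1 by 0.57 ± 0.13 (limma adjusted p = 0.0462). These are 2 of 9 genes, beside 3.6% of all genes called higher, 2.85% called lower and 6.45% in either direction. The arrays differ in deposited scale and ACTB ratio as given above, and whether the number marks a culture, a batch of RNA or another step is not given in the sources used here, so these cannot be told apart.

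In LNCaP 8 of 9 genes were above 0 by their chosen probe sets, with a median of 0.38 beside 0.02 for all genes. Number 2 minus number 1 lay between 0.21 (HSPE1) and 1.28 (HSPH1) in the PGK arrays, all 9 above 0. In the EOS arrays it lay between -0.53 (DNAJB1) and 0.88 (HSPH1), with 8 of 9 above 0. The share of all genes above 0 was 50.8% in the PGK arrays and 51.3% in the EOS arrays. The genes that did not pass were HSPD1 at 0.38 ± 0.12, HSPA4 at 0.40 ± 0.13, BAG3 at 0.45 ± 0.15, HSP90AA1 at 0.29 ± 0.12, HSP90AB1 at 0.27 ± 0.14, HSPE1 at 0.14 ± 0.13 and DNAJB1 at -0.11 ± 0.22. A probe set of HSPA4 other than the chosen one went the other way, at -1.27 ± 0.20. With the mean of probe sets HSPA4 was at -0.08. Other HSP90AB1 probe sets were at 0.07 ± 0.13 and -0.03 ± 0.15, and those of HSP90AA1 at 0.09 to 0.33. The other tested HSPD1 probe sets were at 0.19 and 0.24, and those of HSPH1 at 1.37 and 0.81.

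Leaving out either LNCaP PGK array left the number difference to the EOS pair alone, 0.63 for HSPB1 and 0.88 for HSPH1. Leaving out either LNCaP EOS array left it to the PGK pair alone, 0.50 and 1.28. Neither gene kept its call in these fits. Leaving out any of the 4 DU145 PGK or EOS arrays ended the call for HSPB1 (limma adjusted p from 0.067 to 0.0687). In DU145 none of the 9 genes passed, nor did any other of the 14313 genes by limma (0%). An unadjusted p under 0.05 was found for 1113 genes, and 0 of them were heat shock genes. The 9 genes had a median of 0.05 there, by their chosen probe sets. Their other probe sets past the filter ran from -0.875 ± 0.20 (DNAJB1, chosen one at -0.35) to 0.67 ± 0.28 (HSPH1, chosen one at -0.13). Among them an HSPD1 probe set was at -0.53 ± 0.175, with the chosen one at 0.05.

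**Figure D5:**
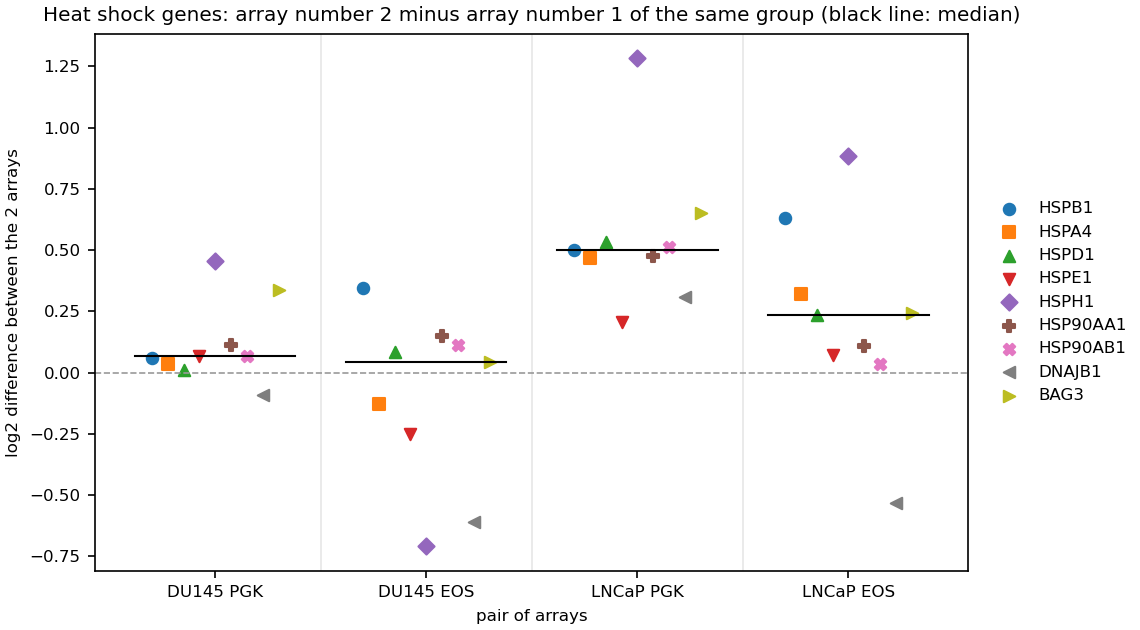
Log2 difference (vertical axis) between the array numbered 2 and the array numbered 1 of each PGK and EOS group, for the 9 genes, with black lines for medians. All 9 genes lie above 0 in the LNCaP PGK pair and 8 of 9 in the LNCaP EOS pair, with HSPH1 at 1.28 and 0.88.

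Among the other chaperones, 4 of 62 were higher and 4 lower in number 2 of LNCaP, beside 3.6% and 2.85% of all genes. HSPA2 and HSPA4L, further HSP70 relatives, were higher by 2.10 ± 0.23 and 1.498 ± 0.23. BAG2 and DNAJB4 were higher by 0.73 ± 0.14 and 0.68 ± 0.15. The small heat shock protein HSPB8 was lower at -2.37 ± 0.24, and SIL1, STIP1 and CDC37 were lower at -0.77 ± 0.18, -0.67 ± 0.14 and -0.63 ± 0.15. HSF1 at 0.42 ± 0.20, HSPA9 at 0.25 ± 0.12, DNAJA1 at 0.08 ± 0.19 and HSPA5 at -0.39 ± 0.18 did not pass.

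Within lines, the genes varied together to different degrees. After each line's mean was taken off, Pearson's r over the 10 arrays was 0.955 between HSP90AA1 and HSP90AB1, 0.943 between HSPD1 and HSP90AA1, 0.855 between HSPA4 and HSPH1 and 0.848 between HSPA4 and BAG3. Correlation with the mean of the other genes was 0.885 for HSPH1, 0.841 for HSPA4, 0.812 for BAG3, 0.33 for HSPB1 and 0.0326 for DNAJB1. The arrays share number, line and scaling, and these values are a description. The centred mean of the 9 genes was lowest in LNCaP PGK 1 (-0.24) and LNCaP EOS 1 (-0.20) and highest in LNCaP PGK 2 (0.31). The genes of most similar pattern to that mean were EYA3 (r = 0.969), NPR3 (0.968), UHRF1 (0.967), CCNK (0.961) and PTTG1 (0.956), over the same 10 arrays. Within LNCaP alone their r ran from 0.97 (UHRF1) to 0.998 (NPR3), and within DU145 from 0.607 (NPR3) to 0.929 (UHRF1).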

How the data were processed

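Per the labels' protocols, total RNA was purified on columns, amplified with a biotin label and hybridised. Each deposited value is a linear intensity per probe set. MAS5 and affy appear in the submitters' processing notes, with no version or role. Background correction and scaling target are not given in the sources used here, and detection calls were not used here.

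Arrays were brought to a common 2% trimmed mean of 500. Values were then taken as log2(intensity + 16), a scale on which changes of dim genes appear smaller. Of 54675 probe sets, 62 controls were left out, and 33451 others that were above the array's median in at least 2 of 10 arrays were kept. Those with 1 symbol gave 14313 genes, 1 probe set per gene (highest mean). Before the filter, 41091 probe sets had 1 symbol, 1801 several and 11721 none. Levels of different probe sets are not comparable, and some chosen probe sets can read related sequences or pseudogenes.

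Differences were tested over all genes with limma 3.58.1 (R 4.3.3; a mean for each of 6 groups, intensity trend, Benjamini-Hochberg adjustment, threshold 0.05). All arrays shared the spread, with 4 residual degrees of freedom, or 2 with the array number as a replicate block, so the spread of a lone ribavirin array was taken from the remaining groups. Values after ± are standard errors, and with 2 arrays against 2 an exact permutation test cannot go below p = 0.333. Scripts were tested on simulated data. Arrays of the same number were taken as pairs. Across genes, deviations of same-numbered PGK and EOS arrays from their group means correlated at r = 0.123 in DU145 and 0.484 in LNCaP. The block was used for ribavirin and array number, and as an alternative elsewhere.

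The members and gene lists were chosen with earlier results of these data known. The rule for named genes took all members and, in each comparison, HSF1, HSPA1A or HSPA1B, HSPA5, HSPA9, DNAJA1, STIP1 and the 8 other list genes of smallest p. Where no list gene passed, most are given only by counts. TRAP1 was named outside the rule, after its value was seen. Alternatives were the pseudocount, quantile normalization, no filter, the mean of probe sets, unscaled intensities, the block, each vector alone and each array left out. The fit for each vector alone kept all arrays for the spread. The line comparison within arrays of 1 number, with and without the ribavirin arrays, was added after seeing the data. Those fits held line and vector effects on the arrays of that number, with fewer residual degrees of freedom than the main fit. The number of arrays limits the precision. Promoter sequences came from RefSeq (GRCh38.p14).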

Additional observations from a re-analysis of the deposited data

How the results depend on the processing

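In the line comparison HSPB1 and HSPE1 kept their direction and an adjusted p under 0.05 (limma) under every alternative run except unscaled intensities, where 481 genes and 0 of the 9 passed, and where the unequal deposited scales add to the spread within groups. Unscaled, the all-gene median of the DU145 EOS comparison also moved from -0.02 to -0.18. The EOS groups alone gave 4355 genes and 3 of the 9 (HSPB1, HSPE1 and DNAJB1), with fewer samples in the difference. The spread there was still that of all arrays. The replicate block gave 8027 genes and 6 of the 9 in the line comparison and changed no call of a heat shock gene other than that of BAG3. Under the block, EOS against PGK stayed at 0 genes, as ribavirin against EOS did without it.

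Leaving out 1 array gave 0 to 4 genes for EOS in LNCaP (3 without LNCaP PGK 1 and 4 without LNCaP EOS 1). For ribavirin it gave 0 to 25 in LNCaP, 0 to 1 for the mean and 0 to 1 for the difference, the upper value each time without LNCaP EOS 2. For array number in DU145 it gave 0 to 6, and a pseudocount of 64 and the mean of probe sets gave 1 gene each. For array number in LNCaP it gave 474 to 940 genes and 0 to 2 of the 9. There, 0 of the 9 passed with a pseudocount of 1, with quantile normalization or with no filter, and 1 with the mean of probe sets. The cause of these shifts was not tested. No heat shock gene passed in the EOS or ribavirin comparisons under any alternative run, and no value that passed the test changed sign. Unscaled intensities were not run for ribavirin or array number. The few arrays per group limit what could be detected.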
